A study of Mus musculus with 20 samples.

Results

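This report is about 62 mouse genes that were well represented in the newborn testis and at least 3-fold lower a few days later. They were chosen from the values themselves. A gene had to have a mean of at least 10 reads per 1000000 reads on genes (CPM) on day 1 after birth and again on day 3, and a day 7 mean at least 3-fold below both, with symbols starting with Col, Hox or Hist left out. No such symbol met the other criteria, so the exclusion removed nothing. Of 23366 genes in the table, 10509 had 10 CPM or more on both days, and the 62 are 0.59% of those. The day 1, day 3 and day 7 values below chose the genes, so they are a description with no test.

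RNA came from wild-type C57BL/6J mice. There were 5 stages with 2 biological replicates each, thus 10 RNA libraries: whole testis on days 1, 3 and 7, and spermatocytes at 2 steps of meiosis, leptotene/zygotene and the later pachytene. The spermatocytes were separated by their settling velocity (STA-PUT) from the testes of males of 70 to 80 days. No stage carried a mutation or treatment. A whole testis mixes germ cells with Sertoli, Leydig, peritubular, vascular and immune cells, whereas a purified fraction is mostly one germ cell stage, so levels in the 2 kinds of sample are set side by side and not tested against each other. In such bulk RNA, fewer cells of a type and less RNA per cell cannot be told apart.

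In the days after birth the testis changes from its fetal to its postnatal make-up. Gonocytes, the germ cells carried over from fetal life, return to division and give rise to spermatogonia. Fetal Leydig cells, the steroid makers of the fetal testis, decline before the adult Leydig population forms, and the cords, vessels and connective tissue between them grow and mature.

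Reads on genes ranged from 6133551 to 22181395 in the testis libraries and from 3597360 to 20545793 in the spermatocyte libraries, so that 3 counts corresponded to between 0.135 and 0.834 CPM. The testis was recognisable by its markers: 15 Sertoli cell genes, such as Amh and Sox9 (Krt18 and Ptgds of the 62 among them), summed to between 5732 and 7705 CPM in every testis library and to between 32.5 and 310 CPM in the spermatocyte libraries. Genes of spermatogonia and of entry into meiosis summed to between 120 and 169 CPM on days 1 and 3 and to 811 and 695 CPM on day 7. Their part in the lower day 7 share of the genes described here was not tested.

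The label under which these genes were grouped speaks of loss by day 7, and the data show a lower level more often than loss. On day 7, 60 of the 62 still had a mean of at least 1 CPM and 22 had at least 10 CPM. The median gene was at 29 CPM on day 1, 22.5 CPM on day 3 and 5.37 CPM on day 7. Every day 7 library lay below every day 1 and day 3 library for all 62 genes, and for 32 the lowest newborn library was at least 3 times the highest day 7 library. For comparison, the median of all genes at 10 CPM or more was 0.939-fold on day 1 relative to day 7, against 5.24-fold for the 62, a contrast that the choice itself fixes.

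**Figure D1:**
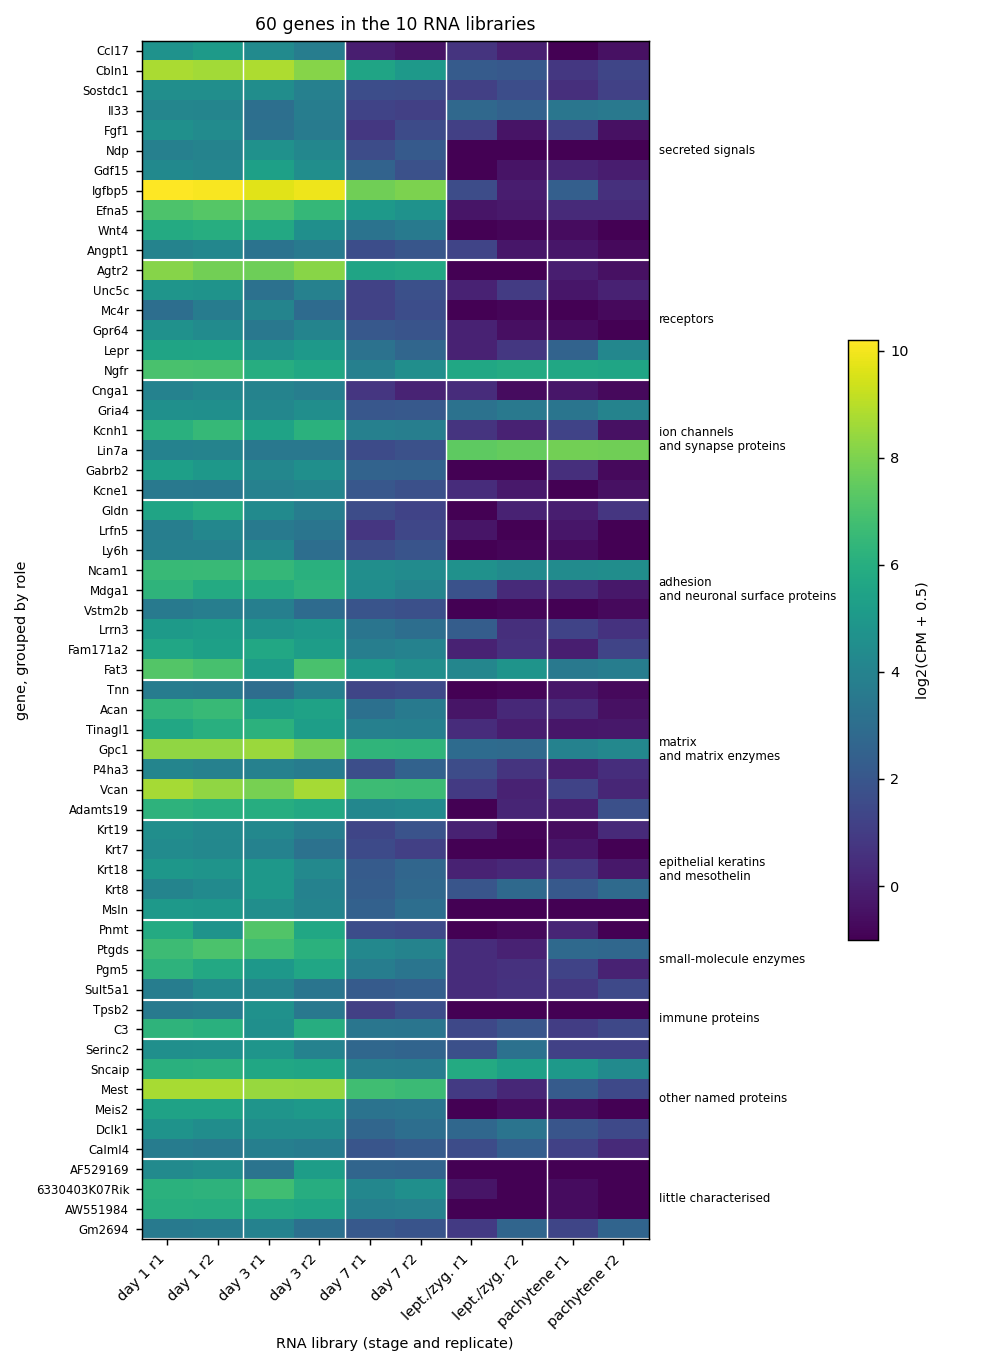
Level of 60 of the 62 genes (rows, grouped by role) in the 10 RNA libraries (columns), as log2(CPM + 0.5) on the colour scale. The 4 newborn columns are brighter than the 2 day 7 columns in every row, and most rows are dark in the spermatocytes, with Lin7a, Ngfr and Sncaip as bright exceptions.

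Of the 62, Ccl17 had the largest ratio. It is a chemokine that attracts T cells bearing the receptor CCR4, and it was at 25.9 and 33.9 CPM on day 1, 19.7 and 12.8 CPM on day 3, and 0.453 and 0.254 CPM on day 7, where the 2 libraries held 6 and 3 reads of it. The libraries of the 3 ages did not overlap, and the day 3 mean was 46.1 times that of day 7. Cnga1, a subunit of the cyclic nucleotide gated channel of rod photoreceptors, was at 15 and 17.5 CPM on day 1, 15.6 and 13.4 CPM on day 3, and 1.21 and 0.593 CPM on day 7. Its libraries of days 1 and 3 overlapped, and the lower of the 2 means was 16.1 times the day 7 mean.

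Pnmt, the enzyme that turns noradrenaline into adrenaline, followed another course. It was at 56.6 and 26.2 CPM on day 1, 143 and 51.0 CPM on day 3, and 2.64 and 2.29 CPM on day 7. The day 3 mean (97.1 ± 65.2 CPM, SD, n = 2) was above that of day 1 (41.4 ± 21.5) with libraries that overlapped, and the lower of them was 16.8 times the day 7 mean. Cbln1, a secreted protein known for organising cerebellar synapses, was at 440 and 399 CPM on day 1, 447 and 281 CPM on day 3 and 45.4 and 31.8 CPM on day 7. It kept 10 CPM or more at all 3 ages, with the newborn libraries well above both day 7 libraries.

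**Figure D2:**
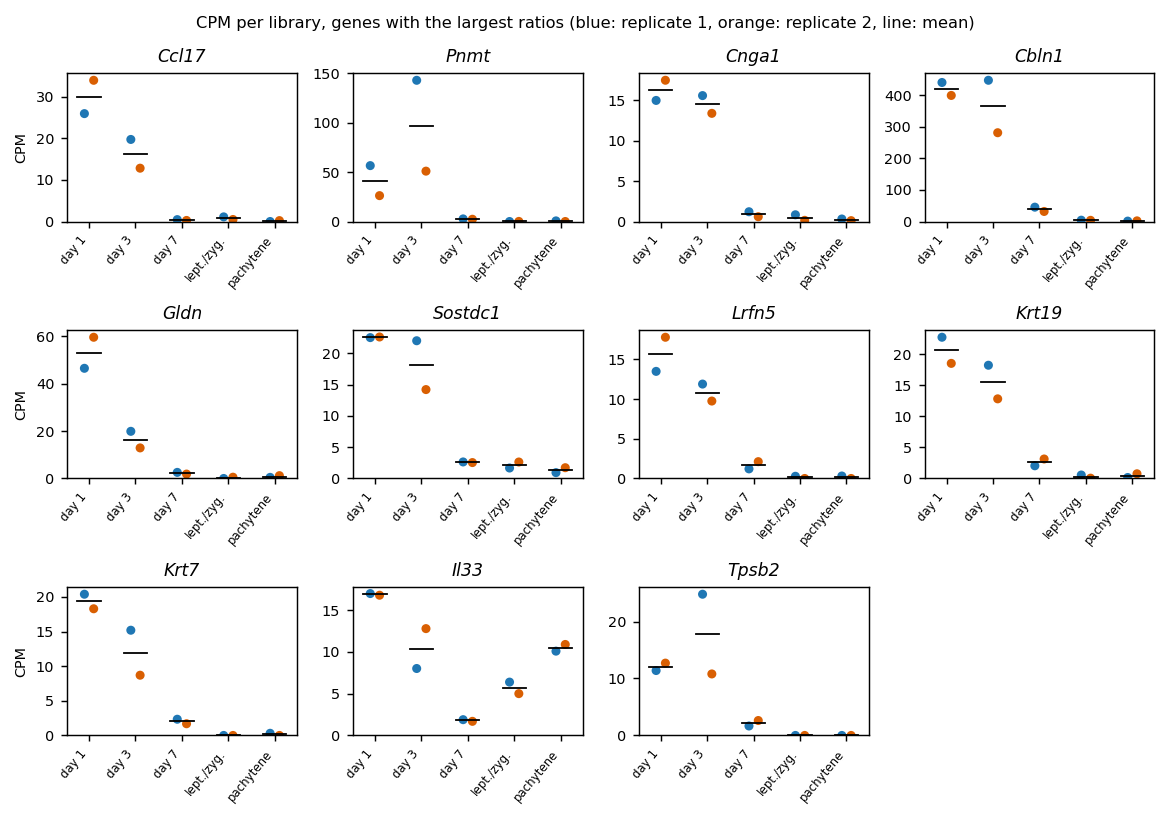
CPM (vertical axis, from 0) of 11 of the 12 genes with the largest ratio of newborn to day 7 level, by stage; points are libraries and lines are means of 2. In all 11 the day 7 points lie below the newborn points, while Il33 is higher again in pachytene than on day 7.

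Promoter sequences of the genes are shown here because genes that are high and low together may share short motifs at their start sites. RefSeq sequences of the GRCm38.p6 build, from 250 bases before to 50 bases after the start of the gene, were on hand for 42 of the 61 genes with a current RefSeq symbol, and the first listed start was used. The 4 below are those of Ccl17 and Cnga1, which had large ratios, and of the keratin genes Krt8 and Krt18, the only pair of the 62 that are direct neighbours among RefSeq protein-coding genes. Capitals mark a match to any of the 9 motifs searched.
Ccl17, chr8:94810203-94810502, plus strand: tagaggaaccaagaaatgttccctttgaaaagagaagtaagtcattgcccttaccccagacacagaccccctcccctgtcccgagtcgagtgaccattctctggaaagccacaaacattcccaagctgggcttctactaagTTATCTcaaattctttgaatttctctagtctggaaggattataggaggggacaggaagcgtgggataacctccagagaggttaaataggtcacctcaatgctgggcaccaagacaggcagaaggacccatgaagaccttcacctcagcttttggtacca
Cnga1, chr5:72642703-72643002, minus strand: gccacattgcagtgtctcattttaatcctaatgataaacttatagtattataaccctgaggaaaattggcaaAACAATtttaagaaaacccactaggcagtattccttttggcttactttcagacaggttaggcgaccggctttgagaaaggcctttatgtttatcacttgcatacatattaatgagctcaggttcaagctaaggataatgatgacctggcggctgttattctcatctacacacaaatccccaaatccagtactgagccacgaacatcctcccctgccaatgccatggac
Krt8, chr15:102004293-102004592, minus strand: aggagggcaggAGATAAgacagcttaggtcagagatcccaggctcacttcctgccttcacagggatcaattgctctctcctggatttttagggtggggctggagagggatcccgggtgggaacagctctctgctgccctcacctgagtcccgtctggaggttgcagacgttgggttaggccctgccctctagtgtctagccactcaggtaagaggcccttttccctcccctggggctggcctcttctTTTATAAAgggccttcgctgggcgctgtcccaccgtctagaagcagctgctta
Krt18, chr15:102027966-102028265, plus strand: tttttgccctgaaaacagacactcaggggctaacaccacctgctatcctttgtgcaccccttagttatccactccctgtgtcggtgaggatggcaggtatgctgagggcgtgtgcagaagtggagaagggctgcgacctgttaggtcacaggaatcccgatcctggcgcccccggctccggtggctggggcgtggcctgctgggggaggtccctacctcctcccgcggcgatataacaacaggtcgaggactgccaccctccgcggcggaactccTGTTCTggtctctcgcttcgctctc

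The sequences differ in composition, from 41.3% G and C in Cnga1 to 61.3% in Krt18. In Ccl17 the GATA factor motif AGATAA is found on the reverse strand, in Cnga1 the SOX factor motif AACAAT, in Krt8 the GATA motif and the TATA box TATAAA (which overlaps its own reverse match at the annotated start), and in Krt18 the steroid receptor half-site TGTTCT. Such matches are descriptions of letters and not of bound sites.

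The 42 promoters were searched on both strands. The GC box GGGCGG was in 21 (50%), against 35.9% of 27025 genes with a promoter in the table and 68.6% of those at 10 CPM or more on days 1 and 3. TATAAA was in 6 (14.3%, against 14.2% and 6.16%), the EGR motif GTGGGCG in 6 (14.3%, against 8.04% and 15.7%), TGTTCT in 5 (11.9%, against 19% and 11.3%) and the AP-1 motif TGANTCA in 4 (9.52%, against 7.93% and 4.21%). The GATA motif was in 2 (4.76%, against 11.4% and 5.43%), the SOX motif in 2 (against 10.9% and 5.34%) and the E-box CACGTG in 2 (against 7.24% and 10.9%). The motif of the steroidogenic factor SF-1, AAGGTCA, was in 1 (2.38%, against 4.66% and 2.66%). Low CpG content was less common than among all promoters and more common than among genes at 10 CPM or more, which were not matched in level. The ratio of observed to expected CpG was under 0.5 in 20 of the 42 (47.6%), in 57.5% of all promoters and in 14.8% of those of genes at 10 CPM or more.

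Secreted signals, with the contact-acting ephrin Efna5 sorted among them, formed the largest group. It held 11 genes when the 62 were sorted by known role after their values had been seen. Igfbp5, which binds insulin-like growth factors, was the member with the most reads, at 1169 and 1087 CPM on day 1, 820 and 967 CPM on day 3 and 220 and 250 CPM on day 7. Sostdc1, an inhibitor of BMP and Wnt signalling, was at 22.5 and 22.6 CPM, 22.0 and 14.2 CPM, and 2.64 and 2.54 CPM in the same order. Both lay clearly apart between newborn and day 7 libraries while keeping replicates close on days 1 and 7.

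Other signals of the group were the Wnt ligand Wnt4, at means of 59.1, 38.0 and 10.4 CPM on days 1, 3 and 7, and Efna5, an ephrin that guides cells by contact, at 141, 108 and 28.9 CPM. Il33, an alarm cytokine of the interleukin 1 family, was at 16.9, 10.4 and 1.79 CPM. The growth factor Fgf1, the vessel ligand Angpt1 and the Frizzled ligand Ndp completed the named ligands with Gdf15, a stress-induced hormone. Their newborn means were 10.2 to 31.7 CPM, and their day 7 means 1.87, 3.06, 3.31 and 4.16 CPM.

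Receptors numbered 6. Agtr2, the type 2 angiotensin receptor of fetal mesenchyme, was at 287 and 223 CPM on day 1, 213 and 292 CPM on day 3, and 45.7 and 51.2 CPM on day 7. The newborn values overlapped one another and stood far above those of day 7. Ngfr, the low-affinity neurotrophin receptor, was at 127 and 122 CPM, then 61.5 and 50.3 CPM, then 14.3 and 22.9 CPM, a step down at each age. Lepr, the leptin receptor, had means of 46.5, 28.3 and 7.46 CPM, the netrin receptor Unc5c 27.3, 11.5 and 2.30 CPM, the adhesion receptor Gpr64 (now Adgrg2) 22.5, 13.4 and 3.5 CPM, and the melanocortin receptor Mc4r 10.2, 11.6 and 2.22 CPM.

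Genes better known from neurons made up 2 further groups. Beside Cnga1, the channel and synapse group of 7 held the GABA receptor subunit Gabrb2 (35.3, 20.4 and 5.30 CPM on days 1, 3 and 7). It also held the glutamate receptor subunit Gria4 (23.8, 20.3 and 3.72 CPM), the potassium channel genes Kcnh1 (79.8, 57.2 and 13.7 CPM) and Kcne1 (10.8, 15.5 and 3.17 CPM), and the scaffold gene Lin7a (15.3, 10.6 and 2.69 CPM). All 7 had a day 7 mean of between 0.9 and 13.7 CPM.

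Of 9 adhesion and neuronal surface genes, Gldn, whose product clusters sodium channels at nodes of nerves, had the largest ratio. It was at 46.5 and 59.6 CPM on day 1, 19.9 and 12.9 CPM on day 3 and 2.57 and 1.86 CPM on day 7, so the 3 ages did not overlap. Lrfn5, a synaptic adhesion gene, was at 13.5 and 17.8 CPM, 11.9 and 9.76 CPM, and 1.21 and 2.12 CPM. Ncam1, the neural cell adhesion molecule, had means of 93.7, 78.2 and 21.3 CPM. Fat3, a giant cadherin, was at 145 and 123 CPM on day 1 and at 29.9 and 22.9 CPM on day 7, but its day 3 libraries were far apart at 34.9 and 124 CPM. Without the second day 3 library it no longer met the rule.

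Matrix genes numbered 8. Vcan, the large proteoglycan versican, was at 414 and 322 CPM on day 1, 236 and 406 CPM on day 3, and 102 and 99.6 CPM on day 7, and Gpc1, a cell surface heparan sulphate proteoglycan, at 324 and 322, 359 and 238, and 79.8 and 77.1 CPM. In both, the lowest newborn library was more than 2 times the highest of day 7. Without the second day 3 library Vcan no longer met the rule. Acan, the aggrecan of cartilage, had means of 87.1, 40.1 and 10.1 CPM, with day 1 and day 3 libraries that did not overlap. Of the others, Tinagl1, Tnn, Adamts19 and P4ha3 had day 7 means of 14.1, 2.16, 18.8 and 3.98 CPM.

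Keratins of simple epithelia and mesothelin, a surface protein of mesothelium, made up a group of 5. Krt19 was at 22.7 and 18.5 CPM on day 1, 18.2 and 12.8 CPM on day 3 and 2.04 and 3.13 CPM on day 7, and Krt7 at 20.4 and 18.3, 15.2 and 8.70, and 2.34 and 1.69 CPM. The filament partners Krt8 and Krt18, whose promoters are printed above, were at means of 18.1, 23.1 and 5.44 CPM and of 28.2, 24.8 and 5.04 CPM. Msln was at 30.8, 19.4 and 6.42 CPM. In each of these genes the newborn libraries lay above the day 7 libraries, as the choice required of their means.

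Enzymes, immune genes and intracellular proteins made up the rest. Ptgds, the prostaglandin D synthase known in Sertoli and Leydig cells, was at 101 and 129 CPM on day 1, 104 and 70.5 CPM on day 3 and 18.3 and 15.5 CPM on day 7. Tpsb2, a tryptase of mast cells, was at 11.4 and 12.7, 24.8 and 10.8, and 1.66 and 2.62 CPM, and the complement gene C3 at means of 72.3, 43.2 and 9.73 CPM. Mest, an imprinted gene active in the embryo, kept a mean of 103 CPM on day 7 after 427 and 345 CPM on days 1 and 3. Without the second day 3 library C3 no longer met the rule. Nor, beside Fat3 and Vcan, did AF529169, Angpt1, Fgf1, Il33, Lrrn3, Pgm5, Tnn and Unc5c. The remaining enzymes and intracellular genes and 4 genes of unclear function had day 7 means of between 3.61 CPM, in the lncRNA Gm2694, and 20.4 CPM, in 6330403K07Rik.

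Between days 1 and 3 the 62 did not move as one. The day 1 mean was the higher in 51, and the share of all genes with a higher day 1 mean is not given. The median day 1 to day 3 ratio was 1.23, against 0.973 for all genes at 10 CPM or more on both days. Both day 1 libraries lay above both day 3 libraries in 33 (21.6% of genes at 10 CPM or more did so), both day 3 libraries lay above in 4 (24.4% of those genes), and 25 overlapped. Both ages entered the choice, so these counts are a description. In the fit over the whole table, the 62 included, no gene passed edgeR's quasi-likelihood test between the 2 ages (0 of 16872, 0%). At an unadjusted p under 0.05 there were 1097. DESeq2 called 79 over the whole table, and no call is read for a gene of the 62, since both ages chose them.

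Gldn, Unc5c, Fgf1, Ngfr and Acan were among the 33 with both day 3 libraries below both of day 1. The 4 with the higher day 3 libraries were Gdf15 (19.1 and 17.2 CPM, then 41.0 and 22.4 CPM), Ndp (14.3 and 15.5, then 25.1 and 17.8 CPM), Kcne1 (10.9 and 10.7, then 14.7 and 16.3 CPM) and Calml4, a calmodulin-like gene (12.6 and 11.1, then 13.7 and 12.6 CPM). They were named after their values were seen. Replicates bounded what could be seen: the 2 day 3 libraries differed by more than 2-fold in 9 of the 62 genes, against 1 for day 1 and 1 for day 7.

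**Figure D3:**
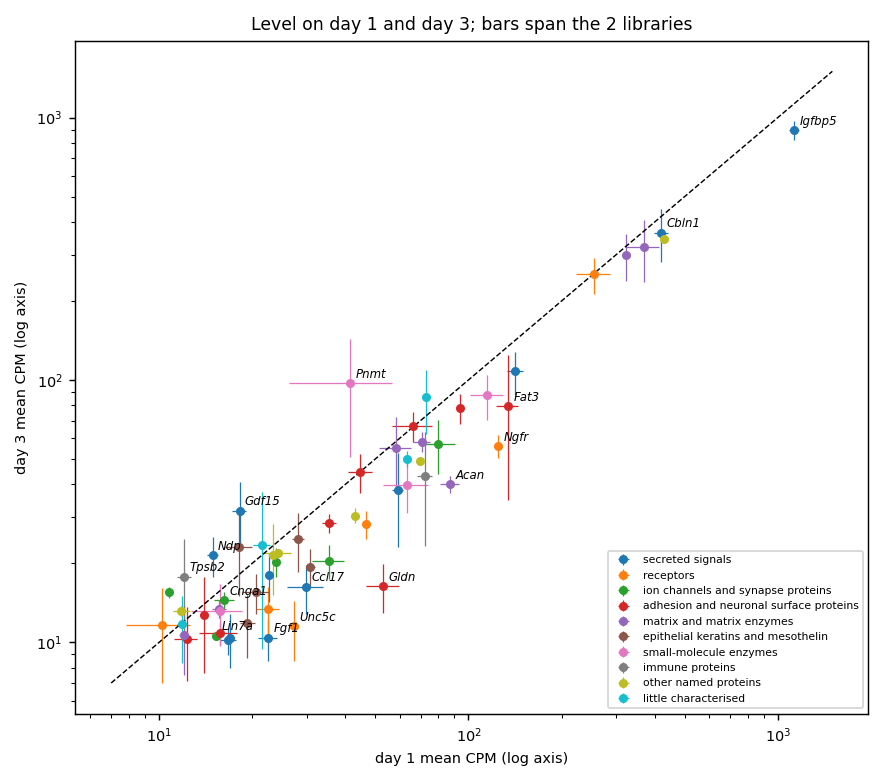
Mean CPM on day 1 (horizontal, log axis) against day 3 (vertical, log axis) for 60 of the 62 genes, coloured by role, with bars from the lower to the higher library and a dashed line of equality. Most points lie below the line, while Pnmt, Gdf15, Ndp and Tpsb2 lie above it.

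In spermatocytes of adults the 62 ranged from no read at all to a mean of 219 CPM. The libraries of these stages had no part in the choice. In both stages 30 genes had a mean under 1 CPM, and Msln, Ndp, Tpsb2 and AF529169 had no read in any of the 4 libraries, which allows up to 0.834 CPM in the shallowest. A mean of at least 1 CPM in either stage was reached by 32 of 62, against 92.7% of all genes at 10 CPM or more on days 1 and 3, and 10 CPM by 10 of 62, against 63.3%. Limits and intervals given for read counts here cover counting error only.

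Lin7a, whose scaffold protein places receptors at cell contacts, was the most abundant in reads. It was at 172 and 188 CPM in leptotene/zygotene and 223 and 215 CPM in pachytene, above every testis library, the highest of which was 15.5 CPM on day 1. It was the single member of the 62 with all 4 spermatocyte libraries above all newborn libraries. Ngfr was at 50.6 and 56.4 CPM and then 50.9 and 46.7 CPM, above its day 7 libraries and below those of day 1. Sncaip, a partner of alpha-synuclein, was at 57.3 and 40.3 and then 32.1 and 19.7 CPM, again above day 7 (13.5 and 13.0 CPM).

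Gria4 was at 8.90 and 11.0 and then 9.81 and 15.8 CPM, and Il33 at 6.39 and 5.01 and then 10.1 and 10.9 CPM, both above their day 7 libraries. With Lin7a, Ngfr and Sncaip among them, 5 of the 62 had all spermatocyte libraries above all day 7 libraries, against 13.4% of genes at 10 CPM or more on days 1 and 3, and 44 had all of them below, against 70.1%. The day 7 level was part of the choice, so these counts describe levels and are not a test. Fat3 (17.2, 27.6, 10.9 and 13.0 CPM), Ncam1 (24.5, 20, 20.9 and 21.8 CPM) and Gpc1 (6.95, 6.91, 15.1 and 18.3 CPM, in the order of the stages) were also present.

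**Figure D4:**
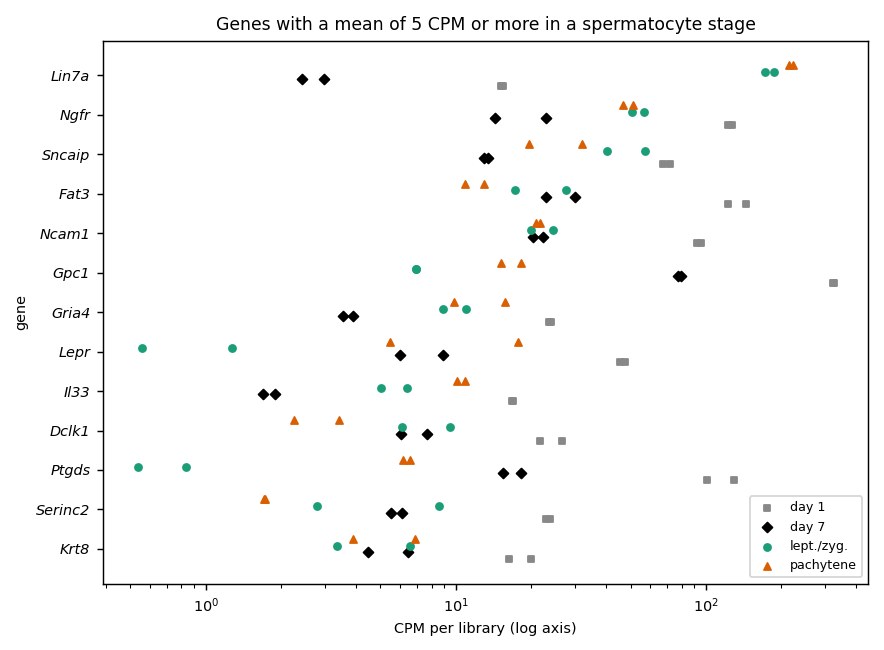
CPM per library (log axis) of 13 of the 14 genes with a mean of 5 CPM or more in a spermatocyte stage, with day 1 and day 7 for reference; each stage shows 2 points. Lin7a has its spermatocyte points to the right of all others, and Lepr and Ptgds have pachytene points to the right of the leptotene/zygotene points.

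The step from leptotene/zygotene to pachytene is the comparison that shares no library with the choice of the genes. It was fitted on the whole table with edgeR's quasi-likelihood test and Benjamini-Hochberg adjustment, on libraries scaled by TMM, which balances most genes between libraries. Of the 62 genes 10 passed, 4 higher and 6 lower in pachytene, while 22.2% of all 16872 genes passed (9.03% higher, 13.2% lower). In a fit of the spermatocyte libraries alone 24 of the 62 were abundant enough to be tested, and the other 38 entered the test of all libraries only with the testis libraries counted in. The count of 10 is therefore not read against the share of all genes. Of the 24, none passed edgeR's test in the fit of the spermatocyte libraries, with 9 at an unadjusted p under 0.05 and a smallest adjusted p of 0.0517.

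Ptgds was the clearest rise, from 0.834 and 0.535 CPM to 6.54 and 6.14 CPM (log2 fold change 2.77 ± 0.39 SE, adjusted p = 0.00184). The 2 stages did not overlap and both stayed below the day 7 libraries. Beside it, the 15 Sertoli cell genes, a list on which Ptgds stands, summed to 114 and 32.5 CPM in leptotene/zygotene and 310 and 215 CPM in pachytene, and their part in this rise was not tested.

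Lepr rose from 0.556 and 1.27 CPM to 5.45 and 17.7 CPM (2.81 ± 0.61, adjusted p = 0.0111), with pachytene libraries that were over 2-fold apart. Its call was lost without the second pachytene library (adjusted p = 0.0567). Agtr2 had no read in leptotene/zygotene and 5 in pachytene, at least 1.65-fold higher against a floor of 3 counts over both libraries, with an adjusted p of 0.0482. That call was lost without any 1 of the spermatocyte libraries, without either day 7 library and with no filter (adjusted p = 0.0508).

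Among the 6 that fell, Sncaip (-1.45 ± 0.28, adjusted p = 0.00721) and Dclk1, a doublecortin-like kinase that binds microtubules (-2.11 ± 0.40, adjusted p = 0.00651), had the smallest p. Dclk1 went from 6.12 and 9.49 CPM to 3.42 and 2.26 CPM, and leaving out the second leptotene/zygotene library ended its call (adjusted p = 0.052). Serinc2, a serine incorporator, went from 2.78 and 8.57 to 1.71 and 1.72 CPM (-2.45 ± 0.57, adjusted p = 0.0154), and Calml4 from 2.50 and 4.58 to 1.71 and 0.754 CPM (-2.27 ± 0.50, adjusted p = 0.0127). Serinc2 no longer passed without the second leptotene/zygotene library or either pachytene library, nor Calml4 without the second library of either stage. Beside the falls, 12 macrophage genes summed to 280 and 320 CPM in leptotene/zygotene and to 95.7 and 84.5 CPM in pachytene. Most of it was Aif1 (228 and 297, then 64 and 71.4 CPM), with Fcgr1 at 0 in 3 of the 4 libraries. In every testis library Aif1 was at or under 2.49 CPM and Csf1r at 24.1 CPM or more, so the sum is no measure of macrophages. C1qb was also lower in pachytene (28.6 and 13.3, then 4.98 and 1.94 CPM). So were the means of Csf1r (1.95, then 0.503 CPM), C1qa, C1qc, Lyz2, Emr1 and Cd14. Mrc1 was higher (4.45 and 0.876, then 8.87 and 5.39 CPM), as were the means of Cx3cr1 (3.01, then 8.43 CPM) and Cd68. A part of macrophages in the falls was not tested.

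Cbln1 also fell, from 4.17 and 3.75 CPM to 1.25 and 2.05 CPM (-1.79 ± 0.39, adjusted p = 0.0119). This call did not hold without the second leptotene/zygotene library (adjusted p = 0.0904), without the first pachytene library (0.0652) or with plain library sizes (0.051). Ccl17 had 14 reads in leptotene/zygotene and 2 in pachytene, a ratio of 0.141 with a counting interval of 0.0156 to 0.615 (adjusted p = 0.0491). The call was lost without any 1 of the 10 libraries and with plain library sizes (adjusted p = 0.108). Cnga1, with 6 and 3 reads (ratio 0.494, interval 0.08 to 2.31, adjusted p = 0.491), and Pnmt, with 2 and 4 reads (1.98, 0.283 to 21.9, adjusted p = 0.757), did not pass. Lin7a did not pass either (-0.28 ± 0.22, adjusted p = 0.419), and its direction turned with plain library sizes (0.28), which shift the median of all genes by 0.55 on the log2 scale.

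The relatives and partners of the leading genes, from lists fixed with earlier results of these data known, showed which neighbours went with them. The edgeR test between days 3 and 7 called 1.49% of all genes (252 of 16872), 0.931% higher and 0.563% lower on day 7, and genes among the 62 are left out of the counts that follow. Without either day 7 library no gene passed (0 of the table), so each such call rests on both.

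Around Pnmt, 6 other genes of catecholamine synthesis and breakdown were tested and 1 was lower, Maob, a monoamine oxidase (72.4 and 60.1 CPM on day 1, 115 and 83.8 CPM on day 3, then 22.6 and 26.5 CPM; log2 fold change -2.06, adjusted p = 0.0325). Th and Dbh, the enzymes that make noradrenaline, were at or under 0.352 CPM in every testis library. Of 7 adrenal cortex genes tested none passed, at a median log2 fold change of -1.41. On days 1, 3 and 7 the corticotropin receptor Mc2r had means of 1.53, 1.18 and 0.165 CPM and Akr1b7 10.7, 18.1 and 5.68 CPM. Nr0b1 (28.5, 53.1 and 59.6 CPM) went the other way. Cyp21a1, the steroid 21-hydroxylase, was at 3.26 and 0.821 CPM on day 1, 15.1 and 19.3 CPM on day 3 and 2.04 and 3.39 CPM on day 7. Both day 3 libraries of Cyp21a1 lay above all others (adjusted p = 0.112), whereas for Pnmt the second day 3 library lay within the range of day 1. A part of adrenal tissue in the course of Pnmt was not tested.

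Of 9 fetal Leydig cell genes tested none passed between days 3 and 7. Between days 1 and 7 the same edgeR fit called Crhr1 (log2 fold change -2.16, adjusted p = 0.031) and Hsd3b1 (-1.31, adjusted p = 0.0328) lower on day 7. No other gene of the list passed there. Genes outside the list passed that comparison too. Among them, the endothelial genes Vwf (-2.13, adjusted p = 0.00855) and Tie1 (-1.74, adjusted p = 0.0287) were lower on day 7. The Sertoli cell gene Gata1 was higher (adjusted p = 0.0147), so passing was not particular to fetal Leydig cell genes. Refits and the share of all genes called are not given for that comparison. The list summed to 1631 and 1419 CPM on day 1, 1312 and 1165 CPM on day 3, and 661 and 894 CPM on day 7. Hsd3b1 and Cyp11a1, steroid-making enzymes, held most of it. Mc2r, the corticotropin receptor, was at 1.30 and 1.76, 1.40 and 0.955, and 0.0755 and 0.254 CPM (adjusted p = 0.103), the one gene of the list that was at least 3-fold lower on day 7 than on both newborn days. Whether these cells account for Pnmt or other genes of the 62 was not tested.

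Around Ccl17, 15 other CC chemokine and receptor genes were tested and none passed. Ccr4, its receptor, was at or under 0.469 CPM in every testis library, and Ccl22, the other ligand of that receptor, at or under 1.29 CPM. Around Cbln1, 7 relatives and partners were tested and none passed, with Cbln4 at 78.9 and 83.3, 90.8 and 109, and 40.2 and 33.8 CPM on days 1, 3 and 7 (adjusted p = 0.122). Around Cnga1, 5 other subunits were tested and none passed, and the only one above 5 CPM in every testis library was Cngb1, its partner in rod photoreceptors, at 10.3 and 8.30 CPM on day 7.

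Mast cell genes went with Tpsb2 in part. Of 7 others tested 2 were lower, Cpa3, the mast cell carboxypeptidase (log2 fold change -2.31, adjusted p = 0.0394; 5.38 and 5.40, 11.0 and 7.11, 1.66 and 2.12 CPM), and Mcpt2 (1.14 and 2.35, 7.62 and 3.29, 0.151 and 0.00 CPM). Cma1, the chymase, was at 5.38 and 6.45, 13.4 and 7.85, and 1.28 and 2.71 CPM (adjusted p = 0.0609), and Hdc, which makes histamine, at 23.8 and 20.7 CPM on day 7 (adjusted p = 0.851). Tpsab1, another tryptase, was low on day 1, unlike Tpsb2, at 0.652 and 0.821 CPM, and at 25.4 and 12.4 CPM on day 3. On day 7 it was at 3.25 and 0.254 CPM (adjusted p = 0.0688). Kit, which mast cells share with spermatogonia, had 116 and 108 CPM on day 7 against 44.2 and 41.6 CPM on day 1.

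Among 9 duct epithelium genes tested beside Krt19, 1 was lower, Emx2, a regulator of urogenital epithelium (14.8 and 14.2, 9.15 and 8.80, 1.89 and 2.12 CPM, log2 fold change -2.21, adjusted p = 0.0225). Cdh16, a cadherin of kidney and duct epithelium, was at 15 and 7.51, 1.49 and 5.73, and 0.377 and 0.169 CPM (adjusted p = 0.11). Between days 1 and 7 it passed in the same edgeR fit (log2 fold change -5.30, adjusted p = 0.026). Emx2 (adjusted p = 0.00689) and Gata3 (adjusted p = 0.046) were also called lower there. Other duct genes went both ways without passing. Pax2 (means of 2.98, 4.95 and 5.99 CPM on days 1, 3 and 7) and Lhx1 (2.73, 9.77 and 6.18 CPM) were higher on day 7 than on day 1. Pax8 (10.7, 7.25 and 5.24 CPM) was lower. Epcam, which germ cells also carry, was at 36.7 and 30.6 CPM on day 7. Among 21 matrix genes outside the collagens tested beside Vcan, 1 was lower, Mfap2, a microfibril protein (192 and 176, 207 and 154, 63.3 and 65.8 CPM). The 22 tested genes of the list, with Vcan counted in, had a median log2 fold change of -0.78 against -0.02 for all genes. The fall of Vcan was part of the choice, and all genes were not matched in level, so the 2 medians are a description. The calls of Maob, Cpa3, Mcpt2, Emx2 and Mfap2 were each lost without either day 1 library or the first day 3 library.

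**Figure D5:**
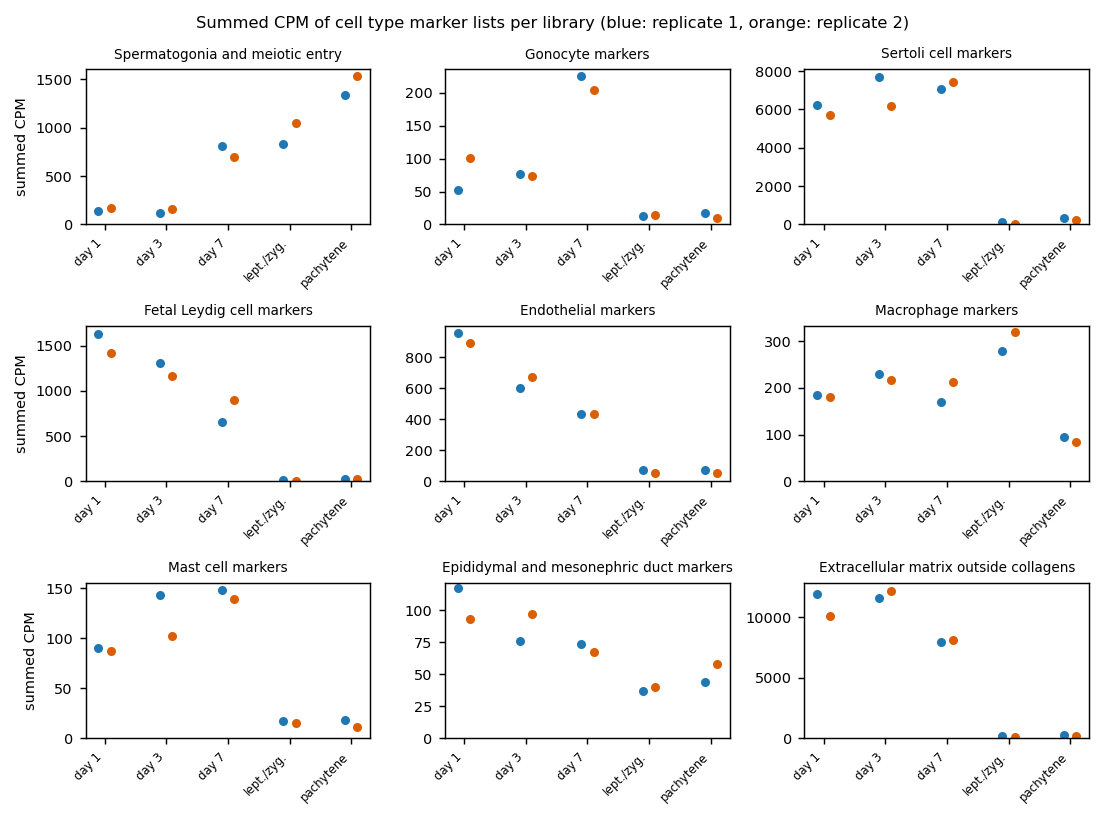
Summed CPM (vertical axis, from 0) of 9 marker lists by stage, with 1 point per library. The spermatogonia list is highest from day 7 on, and the fetal Leydig, endothelial and matrix sums are lower on day 7 than on day 1. The Sertoli sum is at a like level on all 3 testis ages, though its genes moved in both directions. Between days 1 and 7 the mean of Amh went from 1254 to 595 CPM and that of Clu from 1302 to 2292 CPM.

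The edge of the group was a matter of small differences. The genes nearest to the 3-fold limit inside it were Ngfr (ratio 3.00), Fat3 (3.01) and Sult5a1 (3.02), and nearest outside it Adamts16 (2.98), Asic4 (2.98) and Ptn (2.97). At the 10 CPM limit Angpt1 (10.2 CPM), Mc4r (10.2 CPM) and Vstm2b (10.3 CPM) stood inside, and Bai3 (9.24 CPM), Emx2 (8.98 CPM) and S100a9 (8.78 CPM) outside. S100a9, a calcium-binding protein of neutrophils, would have had the largest ratio of all at 54.8.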

How the data were processed

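The authors deposited a table of raw counts per gene symbol, whole numbers with a column per library. The aligners BWA 0.7.8 and Bowtie 0.12.7, the read counter HTSeq 0.6.1, the package edgeR 3.6.8 and the build mm9 are named per the submitters' processing notes. Which step each served and the strand setting used in counting were not given in the sources used here, so reads of a gene and of an overlapping or antisense one cannot be separated. The 5 HTSeq summary rows held 44.7% to 64.5% of reads and were left out. The small RNA libraries were not used here.

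CPM were computed as counts over the library's sum of gene counts. Means and SD are over 2 libraries. Tests used edgeR 4.0.16 (R 4.3.3): filterByExpr with a minimum count of 10, TMM, and a quasi-likelihood fit of all 10 libraries (5 residual degrees of freedom), two-sided. Adjusted p-values are Benjamini-Hochberg values, read at 0.05. A printed SE is the size of the log2 fold change divided by the root of the F statistic. The fit was checked on simulated data. Alternatives included DESeq2 1.42.0. Whether replicates were separate animals beyond being biological replicates is not stated. The p-values rest on a spread between replicates that is pooled over all 5 stages. The SD of the log2 difference of replicates was 1.17 in leptotene/zygotene and 0.968 in pachytene. In the testis stages it was 0.421 (day 1), 0.633 (day 3) and 0.304 (day 7). Tests between the spermatocyte stages therefore draw on the closer testis replicates.

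The genes and lists were chosen with earlier results of these data known. Named were the 4 marker genes given with the rule, the 12 largest ratios, the 10 highest newborn levels, the 8 highest spermatocyte levels, genes past the test, those nearest the limits and those on a list with up to 4 further genes of it; others were chosen after their values were seen. Figures and text leave out some genes, whose values are not reported here.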

Additional observations from a re-analysis of the deposited data

How the results depend on the processing

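The number of genes meeting the rule was 232 with a 2-fold limit, 25 with a 4-fold limit, 33 at 20 CPM and 26 when every newborn library had to be at 10 CPM and 3 times every day 7 library. It was 86 at 5 CPM and 47 with TMM-scaled CPM (44 shared). Without a testis library it ranged from 55 to 70. Without the first day 3 library 47 of the 62 remained, and without the second 51.

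Between leptotene/zygotene and pachytene, 10 of the 62 passed. The count was 17 with DESeq2, 20 with the replicate number as a block in the spermatocyte stages (chosen after seeing the data) and 0 in the fit of the spermatocyte libraries alone, where 24 were tested, and it ranged from 6 to 13 without 1 library. Ptgds and Sncaip passed in all fits but that of the spermatocyte libraries alone. For all genes, 3744 passed, 6366 with that block, 930 with the spermatocyte libraries alone, and 2076 to 5071 without 1 library. Of the 3744, 40.7% were higher in pachytene, and with plain library sizes 77.1% of the calls; of the 62 genes, plain library sizes called 7 higher and 4 lower, and upper-quartile factors 6 and 5. Among refits of single named genes, 256 kept direction and side of the threshold, 43 lost a call, 16 gained one and 5 changed direction, all in genes that did not pass. Those were Gria4 (-0.23; 0.35 with plain library sizes, 0.11 without the second leptotene/zygotene library, 0.06 without the first pachytene library, range without 1 library -0.61 to 0.11), Lin7a (-0.28; 0.28 with plain library sizes) and Pnmt (1.00; -4.15 without the first pachytene library, range without 1 library -4.15 to 5.08). The cause was not tested.

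The replicate number as a block over all stages called 3663 genes and 8 of the 62, with Agtr2 (adjusted p = 0.0652) and Ccl17 (0.0568) lost. The deviations of same-numbered libraries correlated at 0.64 between leptotene/zygotene and pachytene and at -0.108 to 0.0182 between other stages. No label says that a number marks a shared animal or day, and a stage has only 2 libraries, so the pairing of the spermatocyte libraries is not settled and the blocked counts above stand beside the others. Between days 3 and 7, 252 genes passed, 965 with DESeq2, 437 without a filter, 2042 with the block in the spermatocyte stages, and 0 to 632 without 1 library. At 0 genes, without the first or second day 7 library, 1241 and 1403 had an unadjusted p under 0.05. In the spermatocyte libraries 3 counts were 0.146 to 0.834 CPM, and in the testis libraries 0.135 to 0.489 CPM.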
